A study of Mus musculus with 23 samples.

Results

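The loci of Ebf2, Plekhm1, Gtf2ird1, Bmp2k, Ccdc149, Ccn1, H13 and Marchf4 were examined in mouse liver macrophages and related cells by ATAC-seq, in which a transposase inserts adapters into open chromatin. These 8 genes were chosen by the fall of ATAC-seq peaks near them in Kupffer cells lacking Nr1h3 or titled as lacking Smad4, so the knockout values below describe that choice and were not tested. Peaks of all 23 libraries were merged into 155137 regions, and a region belonged to a gene when that gene was the nearest protein-coding gene and lay within 50 kb. In all, 125 regions met this rule. Bmp2k had 26, H13 and Gtf2ird1 20 each, Plekhm1 19, Ccdc149 14, Ccn1 11, Ebf2 10 and Marchf4 5. The farthest regions inside the limit lay 48.9 kb from Ebf2 and 48.55 kb from Bmp2k, and the nearest one outside it lay 56.2 kb from Bmp2k. All coordinates are mm10.

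Kupffer cells are the resident macrophages of the liver sinusoids, which clear particles and old blood cells and handle lipid and iron. Their identity is known to depend on the lipid-sensing nuclear receptor LXRα, the product of Nr1h3, on SMAD4, the shared mediator of TGF-β and BMP signals, and on Notch ligands such as DLL4 on the endothelium. Chromatin away from promoters that opens in only some cell types often holds enhancers. The 8 genes have no common pathway. Ebf2 encodes a transcription factor of the early B-cell factor family known from brown fat, and Gtf2ird1 a factor of the TFII-I family. Plekhm1 is an adaptor for the fusion of late endosomes and autophagosomes with lysosomes, H13 is the signal peptide peptidase of the endoplasmic reticulum, and Marchf4 is a membrane-bound ubiquitin ligase. Bmp2k is a kinase of the Numb-associated family that acts on endocytic adaptors, and Ccn1 is a secreted matricellular protein that binds integrins. Ccdc149 is a coiled-coil protein.

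Knockout Kupffer cells carried Nr1h3 flox/flox with Clec4f-cre +/-, a Cre driven from the Kupffer cell gene Clec4f, and were sorted as TIM4- (2 libraries) or TIM4+ (2). Their controls were TIM4+ Kupffer cells of Nr1h3 flox/flox mice (2), so the TIM4- contrast also compares sorted fractions, and both contrasts share the same controls. Kupffer cells titled Smad4 knockout (2) and control (2) carry strain labels of the opposite sense, Smad4 flox/flox on the knockouts and Smad4 flox/flox Clec4f-cre +/- on the controls. Directions below go by the titles, and they would be the reverse if the strain labels held. In the repopulation experiment, Clec4f-cre/Rosa26iDTR mice received diphtheria toxin, which kills cells that express the toxin receptor. Repopulating liver macrophages (RLM) were taken after 24 h (3) or 48 h (2) of toxin, Kupffer cells of the same strain after PBS (2), and Ly6C-high blood monocytes from C57BL/6J mice (2). Bone marrow-derived macrophages (BMDM) of C57BL/6J mice, cultured for 4 days, were exposed to DLL4 for 24 h (2) or left untreated (2). Titles of the repopulation libraries name separate mice. Elsewhere the labels do not say whether libraries came from separate animals or cultures, so p-values measure the spread between libraries, which may be technical.

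Libraries held 10.4 to 18.4 M tags and 48775 to 104206 peaks. Replicates shared 71.2% to 78.8% of their peaks, with correlations of 0.928 to 0.97 over shared regions. Of 10 Kupffer cell marker genes, 9 had a peak at the gene in every Kupffer cell control library, 2 in blood monocytes, 2 or 3 in 24 h RLM and 4 in 48 h RLM. TIM4- Nr1h3 knockouts had 8, TIM4+ knockouts 8 or 9, and titled Smad4 knockouts 7 or 8 with none at Clec4f. Untreated BMDM had 6 or 7 and DLL4 BMDM 5 or 6. The summed level of the 10 markers was 258 to 353 in titled Smad4 knockouts, against 416 to 510 in titled controls. That sum does not set Kupffer cells apart, at 438 to 525 in PBS Kupffer cells and 477 to 591 in blood monocytes. Of 6 monocyte markers, blood monocytes had 4 and every Kupffer cell library 0 or 1. Of the 6 markers of T and NK cells, only Cd3d and Cd2 had a peak in the Nr1h3 groups. These peaks summed to 63.7 to 76.6 in TIM4- Nr1h3 knockouts and 34.8 to 41.5 in TIM4+ knockouts, against 24.4 to 31.8 in controls. The sum over the 6 markers was higher in blood monocytes (163 to 226), 24 h RLM (151 to 157), 48 h RLM (122 to 130), untreated BMDM (158.5 to 187) and DLL4 BMDM (182 to 206). The part of either list in the results was not tested. Peaks at Nr1h3 and Smad4 persisted in the knockouts. At Nr1h3 they summed to 543 to 619 in TIM4- and 338 to 392 in TIM4+ Nr1h3 knockouts, against 329 to 395 in controls. At Smad4 they summed to 89.8 to 106 in titled knockouts, against 98.1 to 131 in titled controls. Which part of either gene is deleted is not given in the sources used here, so these peaks do not check it.

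Values are the authors' normalised tag counts, the tags in a peak scaled to 10 M tags per library. Where a library has no peak the region is termed uncalled, has no value, and may still be open to some degree. The lowest deposited value was 3.81 to 6.71, depending on the library. For each gene the loss region was defined as the one, among those called in every control library, with the lowest mean of the 3 knockout differences. These 8 regions carry most of what follows. In bulk cells, fewer cells with an open site and less signal per cell cannot be told apart.

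None of the 8 loss regions lay at the gene's own start. Those of Ebf2 (chr14:67275371-67275729), Gtf2ird1 (chr5:134452321-134452647), Bmp2k (chr5:97062169-97062424), Ccdc149 (chr5:52383800-52384091) and H13 (chr2:152686711-152687124) were inside the gene body, and exons and introns were not distinguished here. The Gtf2ird1 region lay 4.23 kb downstream of the start, that of H13 17.46 kb, that of Bmp2k 64.61 kb and that of Ccdc149 87.6 kb. The Plekhm1 region (chr11:103418570-103418896) lay 5.86 kb outside the gene on the side of its start, with Lrrc37a 31.81 kb away. The Ccn1 region (chr3:145653284-145653606) lay 3.3 kb outside, also on the side of the start. The Marchf4 region (chr1:72415688-72415966) lay 11.15 kb beyond the gene's far end, with Xrcc5 20.73 kb away. Nearness was the only link between a region and its gene. At H13 even that was ambiguous, since the region ends 24 bp before Mcts2, a gene nested in H13.

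Promoter sequences were compared because the H13 loss region covers 227 bp of the promoter of Mcts2 and because a peak at Ccn1's own promoter was called in some groups only, while the H13 promoter was open in all 23 libraries. The stretches run from 250 bases before to 50 after the annotated start (RefSeq, GRCm38.p6, shown in the direction of transcription). RefSeq's table held 7 of the 8 members, Ebf2 being the one without an entry. Capitals mark matches to GGAAGT, the core bound by ETS factors such as PU.1, and to CACGTG, the E-box of the MITF and TFE family.
Mcts2, chr2:152686898-152687197, plus strand: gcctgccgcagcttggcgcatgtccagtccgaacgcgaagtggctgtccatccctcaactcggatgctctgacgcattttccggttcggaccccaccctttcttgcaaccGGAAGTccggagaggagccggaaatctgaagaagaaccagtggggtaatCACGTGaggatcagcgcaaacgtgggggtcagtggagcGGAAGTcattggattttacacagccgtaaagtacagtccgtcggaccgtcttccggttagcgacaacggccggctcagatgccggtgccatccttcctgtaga
H13, chr2:152669211-152669510, plus strand: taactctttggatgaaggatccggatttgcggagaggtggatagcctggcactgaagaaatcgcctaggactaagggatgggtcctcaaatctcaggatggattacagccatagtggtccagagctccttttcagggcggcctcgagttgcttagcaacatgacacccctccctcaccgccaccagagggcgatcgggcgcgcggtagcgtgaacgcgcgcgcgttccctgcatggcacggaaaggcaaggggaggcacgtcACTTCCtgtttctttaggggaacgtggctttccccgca
Ccn1, chr3:145649936-145650235, minus strand: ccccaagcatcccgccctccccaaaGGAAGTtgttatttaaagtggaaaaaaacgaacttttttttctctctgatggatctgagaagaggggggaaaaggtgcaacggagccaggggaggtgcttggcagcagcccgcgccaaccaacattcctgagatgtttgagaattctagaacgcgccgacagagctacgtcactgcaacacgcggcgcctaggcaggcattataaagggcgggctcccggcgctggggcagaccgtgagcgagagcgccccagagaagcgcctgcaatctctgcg

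The Mcts2 stretch held 2 matches to GGAAGT and 1 to CACGTG, and those of H13 and Ccn1 held 1 match to GGAAGT each, on the reverse strand in H13. Searched on both strands, GGAAGT occurred in 23.8% and CACGTG in 7.15% of 32851 promoters of this length. AGGTCA, the element of nuclear receptors, had no match in the 3 stretches and occurred in 16.3% of all promoters, and CAGACA, bound by SMAD factors, likewise had none and occurred in 21.0%. Mcts2, H13 and Ccn1 had 58.0%, 58.0% and 57.0% G and C, against a median of 52.67% over all promoters. A match is a run of letters and no measured binding.

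In control Kupffer cells the 8 loss regions were strong. In both knockouts of Nr1h3 and in the titled Smad4 knockout they were weaker, some of them uncalled, to an extent that differed by gene. The Ebf2 region had 9.43 and an uncalled library in TIM4- Nr1h3 knockouts and 15.3 and 15.0 in TIM4+ knockouts, against 185.1 and 126.1 in their controls. It had 12.8 and 18 in titled Smad4 knockouts, against 98.7 and 120.3 in titled controls. Every knockout library with a value lay below every control library. Relative to the median region of the library, the TIM4+ difference was -2.94 on the log2 scale, knockout minus control, and the titled Smad4 difference -2.43.

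The other 7 loss regions did not fall alike in the 3 knockouts. Those of Plekhm1, Gtf2ird1 and Bmp2k fell strongly in both Nr1h3 knockouts and less in the titled Smad4 knockout. At Plekhm1 the values were 6.48 and uncalled in TIM4- knockouts and 9.57 and 12.3 in TIM4+ knockouts, against 163.7 and 101.0 in controls. The titled Smad4 knockouts had 22.9 and 40.3 there, against 78.7 and 117.0 in titled controls. At Gtf2ird1 they were 15.9 and 14.2 in TIM4- and 14.0 and 9.56 in TIM4+ knockouts, against 110.5 and 79.2 in controls, and 26.2 and 48.4 in titled Smad4 knockouts, against 68.4 and 83.6 in titled controls. At Bmp2k they were 6.48 and 6.54 in TIM4- knockouts and uncalled and 10.9 in TIM4+ knockouts, against 94.3 and 62.1 in controls, and 21.2 and 39.7 in titled Smad4 knockouts, against 70.3 and 62.9 in titled controls. In each of these contrasts the groups did not overlap. On the log2 scale Gtf2ird1 differed by -2.96 (TIM4-), -2.60 (TIM4+) and -0.73 (titled Smad4), and Bmp2k by -3.77 (TIM4-) and -0.83 (titled Smad4). The titled Smad4 difference at Plekhm1 was -1.29.

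At Ccdc149, Ccn1 and H13 the order was another one, with TIM4+ knockouts keeping part of the signal. Ccdc149 had 8.25 and 7.63 in TIM4- knockouts and 37.0 and 50.5 in TIM4+ knockouts, against 88.5 and 72.6 in controls. It had 14.0 and 13.6 in titled Smad4 knockouts, against 45.4 and 64.5 in titled controls. Ccn1 had 6.48 and 9.80 in TIM4- knockouts and 23 and 38.9 in TIM4+ knockouts, against 88.5 and 52.8 in controls, and 11.7 and 13.6 in titled Smad4 knockouts, against 51.5 and 80.4 in titled controls. H13 was uncalled in both TIM4- libraries and had 42.1 and 45.7 in TIM4+ knockouts, against 93.1 and 78.6 in controls, and 7.26 and 14.3 in titled Smad4 knockouts, against 61.8 and 84.7 in titled controls. The differences for TIM4+ knockouts were -0.57 at Ccdc149, -0.86 at Ccn1 and -0.64 at H13, and those for titled Smad4 knockouts -1.56, -1.93 and -2.37. Set directly against TIM4+ knockouts, TIM4- knockouts were lower by -3.06 at Ccdc149 and -2.53 at Ccn1 without overlap, while Gtf2ird1 differed by -0.40 with overlapping libraries. At Marchf4 the loss region was uncalled in TIM4- knockouts and had 8.30 in 1 of 2 TIM4+ libraries, against 64.2 and 48.9 in controls, and 8.93 and 11.8 in titled Smad4 knockouts, against 42.4 and 49.7 in titled controls.

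**Figure D1:**
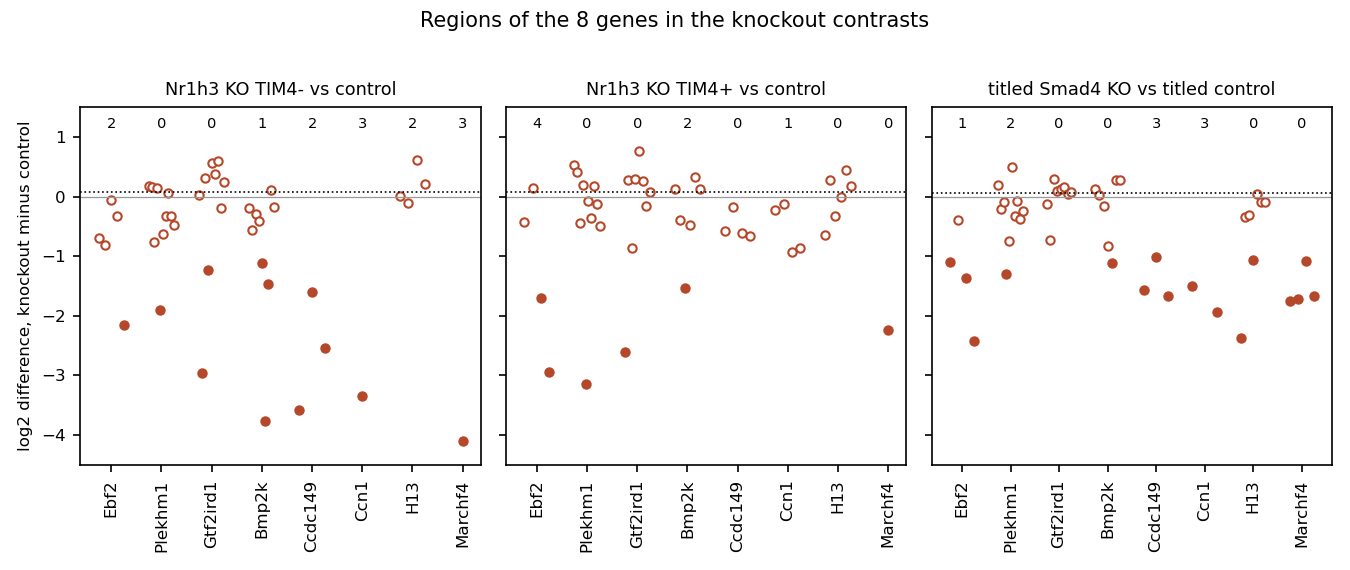
Log2 difference, knockout minus control, of each member region called in every library of both groups, by gene, in TIM4- Nr1h3, TIM4+ Nr1h3 and titled Smad4 knockouts (2 libraries a group). Filled points are regions counted as lower, the dotted line is the median of all shared regions and the number above each gene counts its control-only regions: Marchf4_1 stands lowest in TIM4- knockouts, and no member region was counted as higher.

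Every gene had more than 1 region that was weaker in at least 1 knockout by the rule that follows. Each also had regions not so counted, at Marchf4 only 1, which could not be compared in any knockout. A region was counted as lower when it was shared, that is called in all libraries of both groups, and all knockout libraries lay below all control libraries with a mean difference of at least 1 on the log2 scale, and as control-only when called in every control library and in no knockout library. In TIM4- knockouts 12 of 42 shared member regions were lower and 0 higher, with 3.68% and 1.16% over all shared regions. Of 66 member regions called throughout either group, 13 were control-only, with 4.55% over all such regions. In TIM4+ knockouts 6 of 43 were lower and 0 higher, with 1.78% and 0.766% over all, and 7 of 61 were control-only, with 10.3% over all. In titled Smad4 knockouts 16 of 45 were lower and 0 higher, with 0.869% and 0.794% over all, and 9 of 64 were control-only, with 9.75% over all. The genes were chosen on these contrasts, so nothing is read from those shares. By the same rule the loss regions of Ccdc149, Ccn1 and H13 did not count as lower in TIM4+ knockouts. Those of Gtf2ird1 and Bmp2k did not count as lower in titled Smad4 knockouts. Before centring on the library median, the median region stood 0.40 higher in TIM4- knockouts, 0.31 lower in TIM4+ knockouts and 0.34 lower in titled Smad4 knockouts than in controls, and all differences here are relative to it. The share of tags in peaks was 41.3% and 43.8% in TIM4- and 21.9% and 26.6% in TIM4+ knockouts, against 26.0% and 33.4% in controls, and 15.4% and 19.6% in titled Smad4 knockouts, against 19.5% and 25.2% in titled controls. Its part in the results was not tested.

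Of the 125 regions, 5 were lower or control-only in all 3 contrasts, 14 in 2, 20 in 1 and 86 in none. The 86 include many regions that could not be compared in 1 or more contrasts. The same count was not made over all regions, so nothing is read from its size. Those 5 were Marchf4_1, Ebf2_6, Ebf2_8, Bmp2k_24 and Ccn1_10, where regions of a gene are numbered along the chromosome. None of them is a loss region. The loss regions of Ebf2, Plekhm1, Bmp2k and Marchf4 each had 1 uncalled knockout library in 1 Nr1h3 contrast and could not be compared there. Marchf4_1 (chr1:72413307-72413618), 13.49 kb beyond the gene, had 9.43 and 7.63 in TIM4- and 17.9 and 22.5 in TIM4+ knockouts, against 124.9 and 120.2 in controls. It had 11.7 and 31.6 in titled Smad4 knockouts, against 82.4 and 88.6 in titled controls. Of the 5 regions of Marchf4, 4 were lower or control-only in 2 or more contrasts. Ebf2_6 (chr14:67234427-67234707) lay just inside the gene boundary at 67233292. Which boundary is the start of Ebf2 was not determined here, as the gene had no promoter entry. Ebf2_6 had 21.8 and 13.1 in TIM4- and 10.2 and 19.1 in TIM4+ knockouts, against 87.9 and 40.3 in controls. Ebf2_8 was uncalled in all 6 knockout libraries, against 53.2 and 45.6 in Nr1h3 controls and 41.8 and 36.1 in titled Smad4 controls. Ccn1_10 was weak throughout, with at most 14.2, and Bmp2k_24 lies inside both Bmp2k and Paqr3.

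The promoter peaks of Plekhm1, Bmp2k, H13 and Gtf2ird1 differed less than the loss regions of the same genes. These promoters were among the regions from which each loss region was picked for the lowest mean difference. A smaller mean fall at the promoters was thus set by that choice. Relative to the median region, the Plekhm1 promoter differed by 0.14 in TIM4-, 0.20 in TIM4+ and -0.09 in titled Smad4 knockouts, and that of Bmp2k by -0.18, 0.13 and 0.27. The H13 promoter differed by 0.62, 0.45 and -0.09, and the Gtf2ird1 promoter by 0.31, 0.28 and 0.30. None of these 12 differences reached -1 or 1, so no promoter of the 4 genes was counted as lower in any knockout. Without centring the signs turned for Bmp2k in all 3 contrasts, for Plekhm1 in TIM4+ knockouts and for Gtf2ird1 in TIM4+ and titled Smad4 knockouts. The Ccn1 promoter was called in only part of the knockout libraries and was not counted as lower either, with 5.89 and uncalled in TIM4- and 12.8 and 19.1 in TIM4+ knockouts, against 22.0 and 21.1 in controls, and 10.0 and uncalled in titled Smad4 knockouts, against 35.1 and 30.6 in titled controls. Its 2 TIM4+ libraries lay below both controls as deposited, a difference of -0.13 once centred. With uncalled libraries given the lowest deposited value, the Ccn1 promoter differed by -2.08 in TIM4-, -0.43 in TIM4+ and -2.01 in titled Smad4 knockouts. The Ccdc149 promoter region, called in 6 of 23 libraries, was uncalled in titled Smad4 knockouts, against 9.69 and 16.4 in titled controls, and so counted as control-only. It was also uncalled in Nr1h3 knockouts, against an uncalled library and 12.5 in controls.

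**Figure D2:**
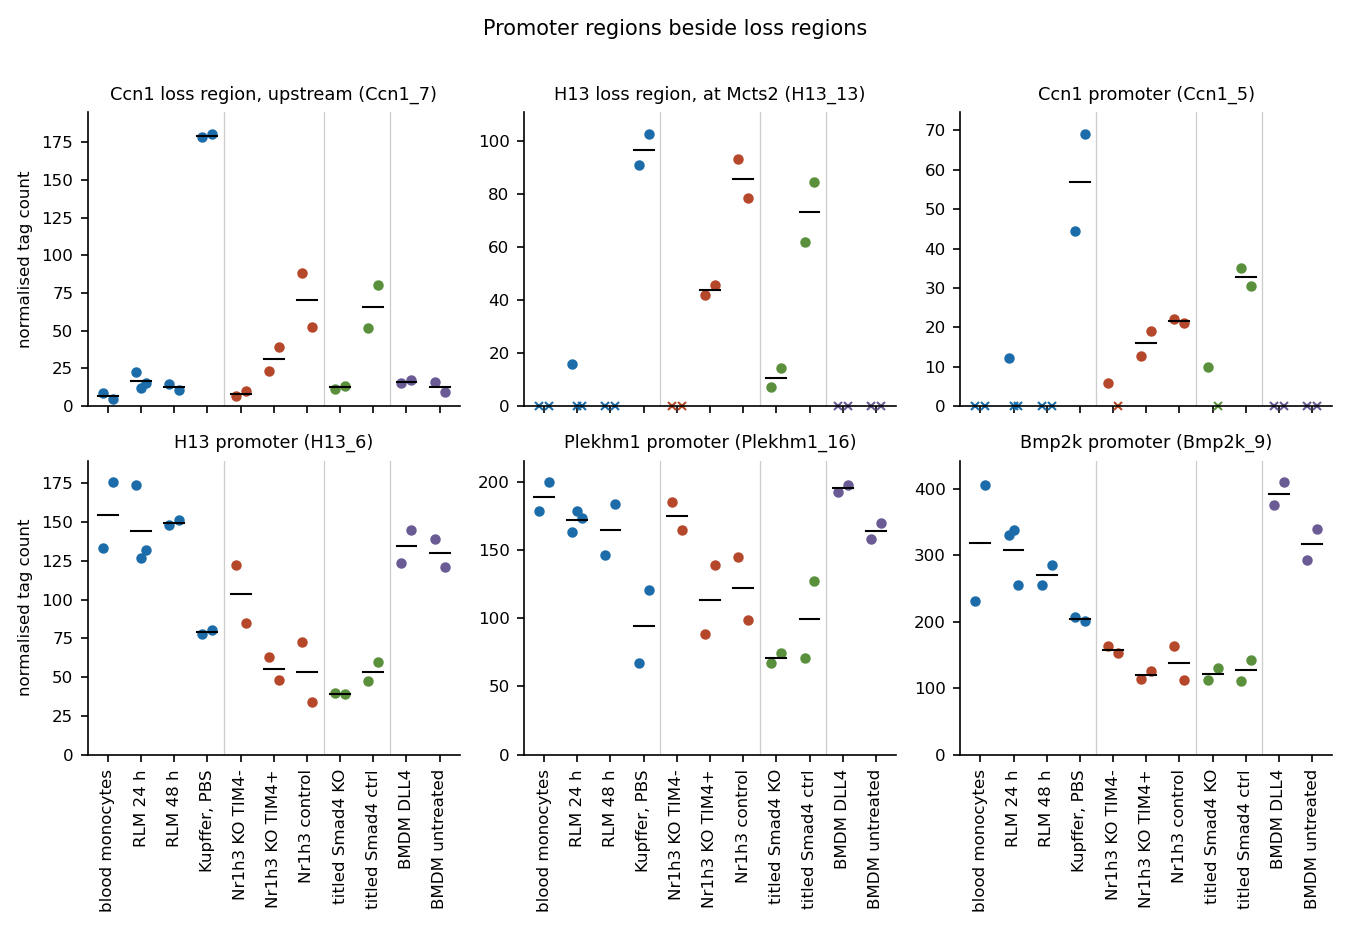
Normalised tag count (per 10 M tags) by library in the 11 groups at the loss regions of Ccn1 and H13 and at the promoter regions of Ccn1, H13, Plekhm1 and Bmp2k, with group means as bars (drawn where every library was called) and uncalled libraries as crosses. The H13, Plekhm1 and Bmp2k promoters carry a peak in all 23 libraries, whereas the Ccn1 promoter peak is uncalled in blood monocytes, 48 h RLM and BMDM.

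Groups the choice of genes did not use show in which other cells these regions were open. Kupffer cells here came from mice given PBS and blood from another strain. The groups are therefore not 1 time course, and no library followed RLM past 48 h. Across blood monocytes, 24 h RLM, 48 h RLM and Kupffer cells, the Ebf2 loss region was uncalled in both blood libraries, had 13.6 in 1 of 3 libraries at 24 h, 19.2 and 21.3 at 48 h, and 192.4 and 209.9 in Kupffer cells. Ccn1 had 8.95 and 4.93 in blood, 22.5, 11.8 and 15.2 at 24 h, 14.8 and 11 at 48 h, and 178.2 and 180.2 in Kupffer cells. Ccdc149 was open at a low level in blood too, with 30.9 and 35.9 there, 28.1, 23.6 and 22.8 at 24 h, 23.5 and 44.0 at 48 h, and 125.1 and 139.0 in Kupffer cells. H13 had 15.9 in 1 of 3 libraries at 24 h, none in blood or at 48 h, and 91.0 and 102.6 in Kupffer cells. Marchf4 was uncalled in blood and in RLM of both times and had 90 and 79.6 in Kupffer cells. At these 5 regions every Kupffer cell library was far above every blood and RLM library.

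The regions of Plekhm1, Gtf2ird1 and Bmp2k, which fell least in titled Smad4 knockouts, were also open in 48 h RLM. Plekhm1 was uncalled in blood, had 15.9 and 7.26 in 2 of 3 libraries at 24 h, 54.9 and 86.5 at 48 h, and 66.4 and 93.0 in Kupffer cells. Gtf2ird1 had 13.4 in 1 of 2 blood libraries, 14.0, 10.9 and 9.48 at 24 h, 77.6 and 128.4 at 48 h, and 84.4 and 83.4 in Kupffer cells. Bmp2k was uncalled in blood and at 24 h, and had 65.4 and 60.9 at 48 h and 84.4 in both Kupffer cell libraries. At Plekhm1 and Gtf2ird1 the 48 h and Kupffer cell libraries overlapped, and at Bmp2k they did not.

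**Figure D3:**
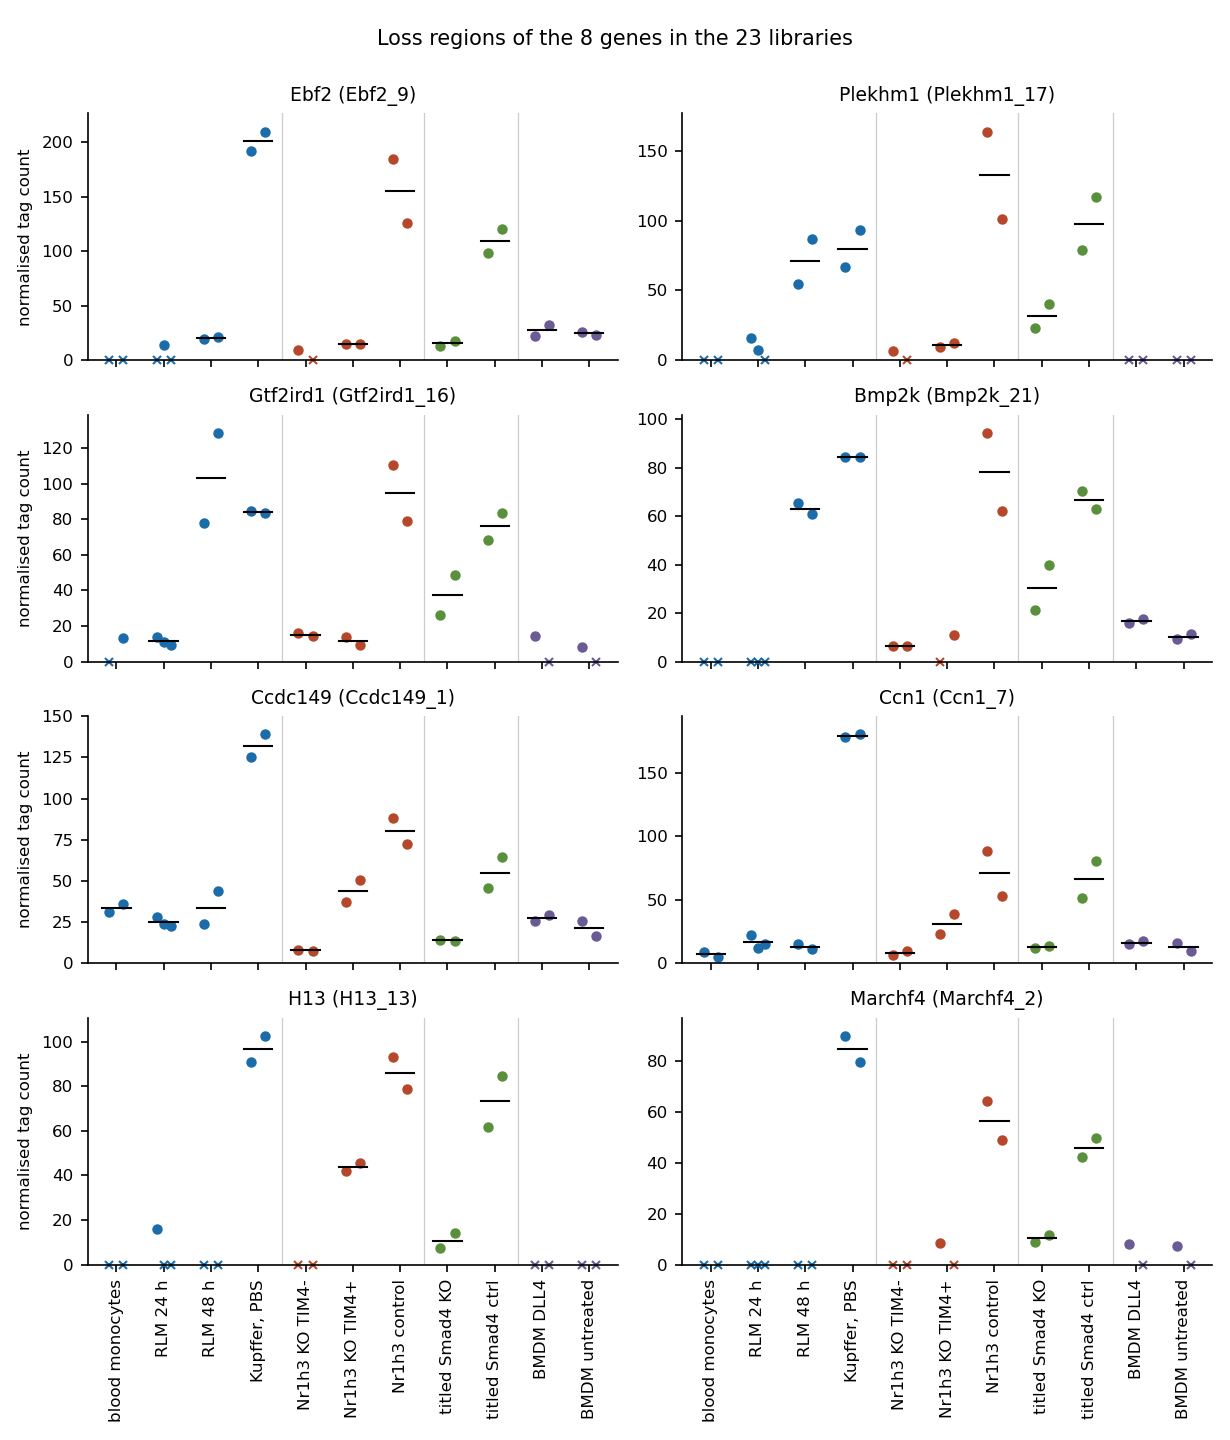
Normalised tag count (per 10 M tags) at the 8 loss regions in every library of the 11 groups, with group means as bars (drawn where every library was called) and uncalled libraries as crosses. Ebf2, Ccn1, Ccdc149, H13 and Marchf4 are highest in the 3 control Kupffer cell groups, while Plekhm1, Gtf2ird1 and Bmp2k are also high in 48 h RLM.

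Signal was tested with limma on log2(normalised tag count + 1), centred on the library median, in shared regions, with Benjamini-Hochberg adjustment over all of them and a threshold of 0.05. Kupffer cells against 48 h RLM gave 12 higher and 5 lower of 41 shared member regions, where 13.7% and 12.6% of all shared regions were higher and lower. The members' median was 0.22 and that of all regions -0.01. Kupffer cell libraries took no part in the choice, but the genes were chosen for peaks open in control Kupffer cells, which favours higher values in Kupffer cells. Ccn1's loss region was higher by 3.99 ± 0.26 (log2, SE, adjusted p = 5.73e-19 by limma, n = 2 each), that of Ebf2 by 3.53 ± 0.23 (adjusted p = 3.32e-19) and that of Ccdc149 by 2.28 ± 0.24 (adjusted p = 1.76e-11). That of Bmp2k was higher by 0.70 ± 0.22 (adjusted p = 0.0126), a call lost without centring at 0.41 (adjusted p = 0.202), without the first Kupffer library (adjusted p = 0.106) or without the second 48 h library (adjusted p = 0.119). The Plekhm1 difference of 0.47 (95% interval 0.03 to 0.91, adjusted p = 0.108) and the Gtf2ird1 difference of 0.03 (-0.38 to 0.45, adjusted p = 0.924) did not pass.

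Further regions of the same genes were higher in Kupffer cells too. Ccdc149_6 (chr5:52431515-52431865), inside the gene, had 118.5 and 123.7 in Kupffer cells, against 12.2 and 27.1 at 48 h, a log2 difference of 2.95 (adjusted p = 5.05e-13). Marchf4_3, inside the far end of Marchf4, had 64.5 and 57.5 in Kupffer cells, against 6.10 and 30.8 at 48 h (2.33, adjusted p = 1.59e-06). The 5 lower regions included the H13 promoter at 77.7 and 80.5 in Kupffer cells, against 148.2 and 151.1 at 48 h (-0.63), and the Plekhm1 promoter at 67.3 and 120.8, against 146.4 and 183.4 (-0.57). Neither promoter call held throughout, since that of H13 was lost without either 48 h library (adjusted p = 0.0962 and 0.0616) and that of Plekhm1 without the first Kupffer library (-0.27, adjusted p = 0.361) or the second 48 h library (adjusted p = 0.216). The count of lower regions was 2 without the first 48 h library, 1 without the second and 3 without the first Kupffer library. H13_9, which lies 2.37 kb downstream of the H13 start, had 16.1 and 20.1 in Kupffer cells, against 79.3 and 68.2 at 48 h (-1.69, adjusted p = 8.49e-06). H13 thus carried regions of both directions, its inner region at Mcts2 being called in every PBS Kupffer cell library and in no 48 h library. With no centring 9 were higher and 7 lower. The median region stood 0.28 lower in Kupffer cells than at 48 h before centring.

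Many regions were not shared. Of 73 member regions called throughout Kupffer cells or 48 h RLM, 12 (16.4%) were called in every Kupffer cell library and in no 48 h library, where the share over all regions was 6.1%, and 4 (5.48%) the other way round, where it was 17.2%. The 12 included the loss regions of H13 and Marchf4, 5 regions of Ccn1 and 2 of Ebf2. These members were chosen for peaks of control Kupffer cells, and the shares are to be read with that.

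The 24 h RLM were set against blood monocytes. Of 35 shared regions 1 was higher and 4 lower, with 16.7% and 9.33% over all regions. The 1 higher region was the Ccn1 loss region, at 1.41 ± 0.37 (adjusted p = 0.00539), which without the second blood library was 0.85 (adjusted p = 0.235), and without that library 1 region in all passed in place of 5. The region that fell farthest was Gtf2ird1_6 (chr5:134350733-134351012), 6.65 kb beyond the gene, with 33.7, 34.5 and 37.0 at 24 h, against 132.7 and 196.6 in blood (-1.91, adjusted p = 3.84e-07). Member regions called throughout 1 group and nowhere in the other numbered 2 of 52 (3.85%) for 24 h RLM and 3 (5.77%) for blood, with 4.33% and 6.44% over all regions. The median region was 0.27 lower at 24 h before centring.

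Between 24 h and 48 h the Gtf2ird1 loss region was higher at 48 h by 2.87 ± 0.32 (adjusted p = 1.38e-05), while the Bmp2k loss region, uncalled at 24 h, had no test. Gtf2ird1_7, 4.58 kb beyond the gene, was higher by 0.64 (adjusted p = 0.0452), and the other 35 of 37 shared member regions did not pass, where 1.92% of all shared regions were higher and 3.53% lower. No member region was lower by limma after adjustment, and 2 were at an unadjusted p of 0.05. The call of Gtf2ird1_7 was lost without either 48 h library (adjusted p = 0.262 and 0.286) and without the first (0.148) or second (0.0619) 24 h library, where 1 region passed. Of 57 member regions called throughout either group, 7 (12.3%) were called at 48 h alone and 0 at 24 h alone, with 7.28% and 0.87% over all regions. Of those 7, 5 lay at Bmp2k, its loss region among them, and the others at Plekhm1 and Gtf2ird1. The median region stood 0.16 higher at 48 h before centring.

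Kupffer cells against blood monocytes gave 8 higher and 7 lower of 31 shared member regions, with 25.7% and 25.3% over all, and 6 higher and 4 lower without the first blood library. Ccn1's loss region again led, at 4.94 ± 0.31 (adjusted p = 2.69e-22), followed by Ebf2_2 at 2.57 and the Ccdc149 loss region at 2.35. Gtf2ird1_6 had 17.1 and 15.3 in Kupffer cells, against 132.7 and 196.6 in blood (-2.85, adjusted p = 3.08e-15), while the Gtf2ird1 loss region, called in 1 blood library, was not testable here. Of 76 regions, 26 (34.2%) were called in Kupffer cells alone and 10 (13.2%) in blood alone, with 16.7% and 20.6% over all. The 26 include 5 of the 8 loss regions that were uncalled in blood. The choice of genes for peaks open in control Kupffer cells favours higher values and calls in Kupffer cells here too. The median region was 0.39 lower in Kupffer cells before centring.

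**Figure D4:**
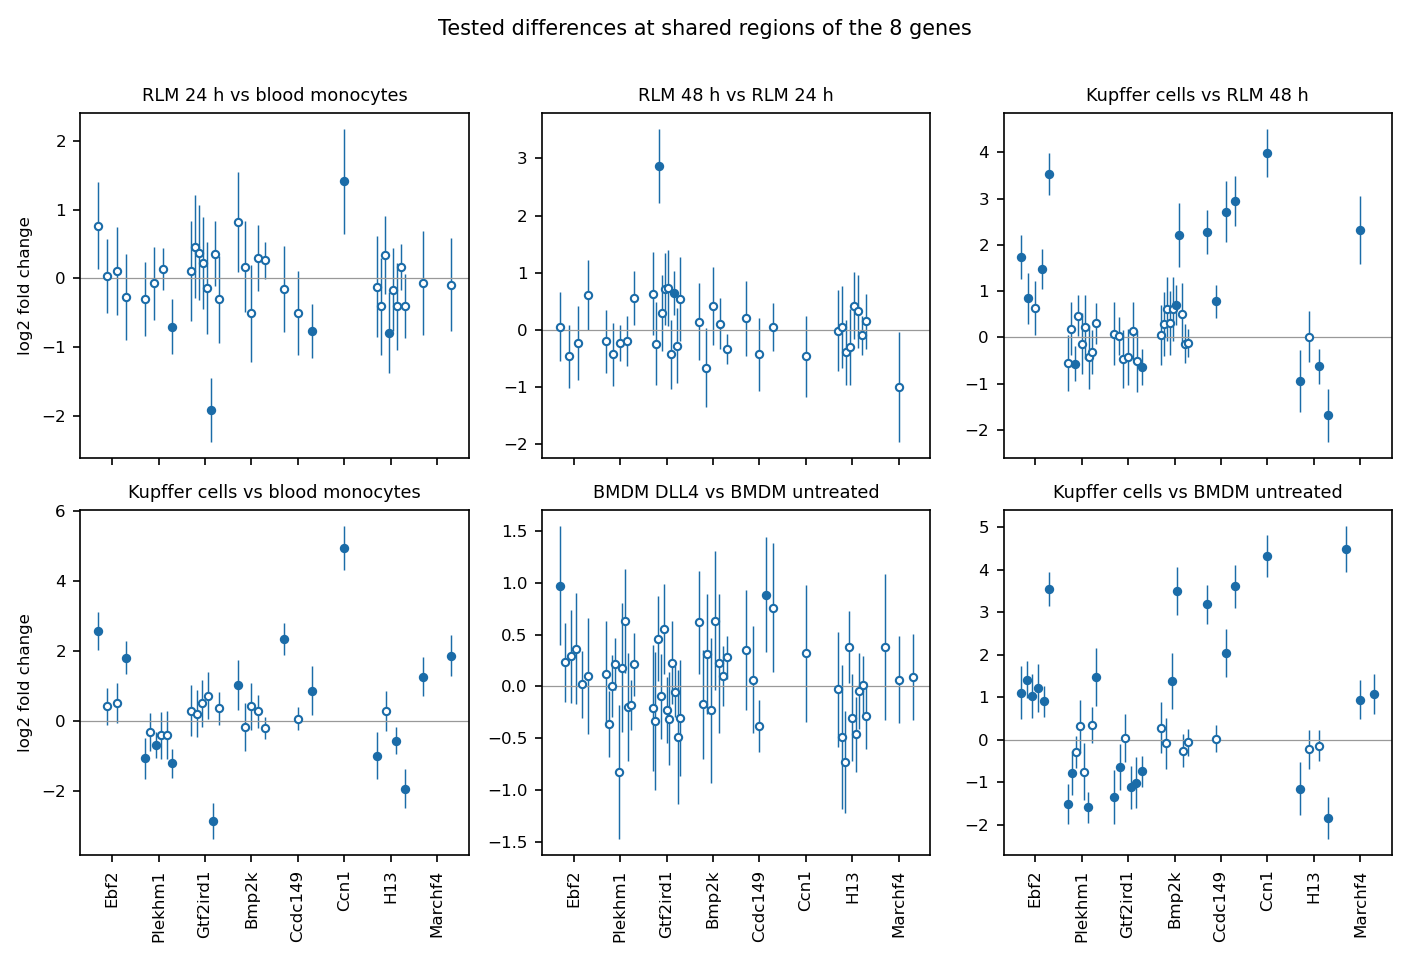
Log2 fold change from limma, first-named group over the second, with 95% intervals, of member regions shared in each of the 6 tested comparisons (relative to the median region; filled points passed an adjusted p of 0.05). The loss regions of Ccn1, Ebf2 and Ccdc149 stand at 3.99, 3.53 and 2.28 in Kupffer cells against 48 h RLM, while Gtf2ird1 stands at 0.03 there and at 2.87 in 48 h against 24 h RLM.

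No loss region passed the test for DLL4 in cultured macrophages. Ebf2's had 22.5 and 32.8 with DLL4, against 25.8 and 23.6 untreated (log2 difference 0.10, adjusted p = 0.907). Ccn1's had 15.3 and 17.1, against 16 and 9.63 (0.32, adjusted p = 0.686), and Ccdc149's 25.4 and 29.4, against 25.8 and 16.6 (0.35, adjusted p = 0.59). Bmp2k's had 16 and 17.8, against 9.21 and 11.4, libraries that did not overlap but a difference of 0.63 (95% interval -0.04 to 1.30) that did not pass (adjusted p = 0.326). Plekhm1's and H13's were uncalled in all 4 libraries, and those of Gtf2ird1 and Marchf4 were called in 1 library of each group. Of 53 shared regions 2 passed, both higher, with 2.36% higher and 1.52% lower over all regions, and at an unadjusted p of 0.05 in limma 9 were higher and 5 lower. They were Ebf2_10, inside Ebf2, at 39.2 and 30.1 against 19.7 and 14.0 (0.97, adjusted p = 0.0349), and Ccdc149_4, inside Ccdc149, at 32.0 and 41.7 against 20.3 and 17.5 (0.88, adjusted p = 0.0495). With quantile normalisation 0 were higher and 1 lower, and without any 1 library 0 or 1 region passed, neither Ebf2_10 (adjusted p of 0.0793 to 0.324) nor Ccdc149_4 (0.0912 to 0.396) passing in any of these 4 fits. Of 63 regions, 1 was called with DLL4 alone and 1 untreated alone, 1.59% each, with 2.76% and 2.63% over all.

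Kupffer cells were also set against untreated BMDM, where cell type and experiment cannot be told apart. Of 38 shared member regions 16 were higher and 10 lower, with 30.8% and 22.8% over all, and without centring 10 were higher and 17 lower, the median region being 0.57 lower in Kupffer cells. Marchf4_1 led at 4.48 ± 0.26 (adjusted p = 7.44e-13), with 146.0 and 131.3 in Kupffer cells, against 8.60 and 7.88 in BMDM. The loss regions of Ccn1 (4.31), Ebf2 (3.54), Bmp2k (3.49) and Ccdc149 (3.18) were higher as well. Of 81 regions, 14 (17.3%) were called in Kupffer cells alone and 12 (14.8%) in BMDM alone, with 7.54% and 30.9% over all. These values, too, are to be read with the choice of genes for peaks of control Kupffer cells.

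The loss regions were picked for high values in Nr1h3 and titled Smad4 controls and low ones in the knockouts, so the order of these groups is in part set by that choice. Ordered by group mean, 7 of the 8 loss regions had the 3 control Kupffer cell groups as their top 3, and Gtf2ird1 had 48 h RLM first. At Ebf2 PBS Kupffer cells averaged 201 ± 12.4 (SD, n = 2), Nr1h3 controls 156 ± 41.7 and titled Smad4 controls 109.5 ± 15.3, and each of these groups stood clear of the next, titled Smad4 controls standing clear of the DLL4 macrophages that followed. At Plekhm1, Gtf2ird1 and Bmp2k the first 4 groups, 48 h RLM included, overlapped one with the next. Over the 23 libraries the 28 pairs of loss regions had correlations of 0.588 to 0.950 with a median of 0.802, highest between Plekhm1 and Gtf2ird1 and lowest between Gtf2ird1 and Ccdc149. Of the 23 libraries, 10 were used to pick the regions, which by itself favours positive correlations. The points also share depth, and uncalled libraries were given the lowest deposited value. Measured in the same way, the regions outside the 8 loci most like them lay nearest to Plpp4 (0.954) for Ebf2, Mertk (0.966), which encodes a receptor for dying cells, for Plekhm1, Gnaq (0.945) for Gtf2ird1, Zfp871 (0.963) for Bmp2k, Cntn5 (0.882) for Ccdc149, Cachd1 (0.962) for Ccn1, Pitpnc1 (0.978) for H13 and Kcnj16 (0.986) for Marchf4. For Gtf2ird1 the Plekhm1 loss region (0.950) stood above Gnaq.

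Relatives of the members were counted by the same rule, by which 3.68% of all shared regions were lower in TIM4-, 1.78% in TIM4+ and 0.869% in titled Smad4 knockouts. Of late endosome and lysosome fusion genes, 3 of 69 shared regions were lower in TIM4- knockouts, 1 of 64 in TIM4+ and 0 of 60 in titled Smad4 knockouts, and 5 of 63 were higher and 5 lower in Kupffer cells against 48 h RLM. Of MARCH ligases, 1 of 43 was lower in TIM4-, 0 of 38 in TIM4+ and 0 of 37 in titled Smad4 knockouts, and 8 of 50 were higher and 4 lower in Kupffer cells against 48 h RLM, among them Marchf6 at 1.56 (adjusted p = 0.000227). In EBF family genes 1 of 4 shared regions was lower in TIM4- and none in the other knockouts. TFII-I family genes (6 regions), CCN genes (7 to 9), signal peptide peptidases (17 to 21) and Numb-associated kinases (5 to 7) had no lower region in any knockout. Of known LXR targets, 5 of 70 regions were lower in TIM4-, 4 of 68 in TIM4+ and 1 of 68 in titled Smad4 knockouts.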

How the data were processed

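ATAC-seq was measured in 23 libraries of 11 groups. Per the submitters' processing notes, reads were aligned with Bowtie2 to mm10 and peaks found with HOMER; no versions are given in the sources used. Per the file headers, HOMER findPeaks wrote for each library by itself the signal, a normalised tag count scaled to 10 M tags (factor style, peak size 200 bp, false discovery rate 0.001, at least 4 times the local 10 kb, local Poisson p 0.0001). Of 1605886 deposited peaks, 1205 on other sequences were left out, and the rest were merged where they overlapped by 1 bp or more, the strongest peak of a library giving its value. The nearest gene came from a table of GRCm38.p6, the assembly of mm10, with protein-coding gene ends only.

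Log2 values (pseudocount 1, computed from the authors' normalised tag counts) were centred on each library's median and tested with limma 3.58.1 in R 4.3.3 (mean-variance trend, two-sided, moderated statistics), separately for each comparison. The script was tested on simulated data. Alternatives were quantile normalisation, no centring, a pseudocount of 10, a filter on mean signal of 20, stricter peaks, fits with more groups, other merging and distance rules, and leaving out each library. The members, gene lists and tests were chosen with earlier results of these data known. Each gene's loss region, its 3 most alike regions and at most 2 regions a gene and comparison past the threshold were eligible for naming, and promoter regions and those of all 3 contrasts were named after their values were seen. Depth was 10.4 to 18.4 M tags, which limits weak peaks most.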

Additional observations from a re-analysis of the deposited data

Results flagged for a closer look

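At 2 member regions every library of one knockout moved the other way from every library of another knockout, once values were relative to the median region. The difference between the knockouts was not tested. Plekhm1_3, inside Plekhm1, had 15.6 and 14.3 in titled Smad4 knockouts, against 11.5 and 15.3 in titled controls (log2 difference 0.49), and 17.1 and 16.9 in TIM4- Nr1h3 knockouts, against 23.1 and 17.2 in controls (-0.62), so that the differences lay 1.11 apart. The Bmp2k promoter had 111.6 and 129.6 in titled Smad4 knockouts, against 110.8 and 142.7 in titled controls (0.27), and 163.2 and 152.5 in TIM4- knockouts, against 163.1 and 111.6 in controls (-0.18), a distance of 0.45. As deposited the Bmp2k means ran in the opposite sense in both contrasts, at 120.6 in titled Smad4 knockouts against 126.75 in titled controls and at 157.85 in TIM4- knockouts against 137.35 in controls, so both signs there rest on the centring.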

How the results depend on the processing

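Stricter peaks, with a value of 16 or more, gave 11 calls in place of 17 in Kupffer cells against 48 h RLM, 16 in place of 26 against untreated BMDM, and 1 in place of 2 at 48 h against 24 h. They gave 2 lower regions in place of 12 in TIM4- Nr1h3 knockouts, 1 in place of 6 in TIM4+ knockouts and 2 in place of 16 in titled Smad4 knockouts, since a knockout value under 16 then counts as uncalled. A difference of 0.5 gave 12 lower regions in TIM4+ knockouts. Fitting all libraries of the experiment gave 1 call at 48 h against 24 h. For DLL4 against untreated BMDM, quantile normalisation, no centring and the replicate block each gave 1 call, and the numbers did not pair the libraries (correlation of deviations -0.038). Leaving out 1 library at a time, with the regions kept, gave 1 to 6 calls for 24 h RLM against blood, the lowest without the second blood library, 1 to 3 for 48 h against 24 h, and 0 to 1 for DLL4, a group's lone library being taken to vary like the other groups. Ccdc149_13 in Kupffer cells against BMDM, 0.03 as reported and not called, was -0.54 (adjusted p = 0.0103) without centring. Of the remaining values of tests, 1487 kept their direction and side of the threshold, 65 lost their call and 20 gained one, and of knockout values 136 stayed and 32 moved. A count test on tags recovered from the normalised values was not run. Depth limits weak peaks, since an uncalled region has no value.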
